A study of Homo sapiens with 6 samples.

Results

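The NRF2 and antioxidant genes described here are 31 genes taken by name, and all 31 were found among the 16000 genes of the deposited table. They were read in 6 poly(A) RNA libraries of LNCaP, an established human prostate cancer line that responds to androgen. ALDEFLUOR, a dye reagent that lights up cells by their aldehyde dehydrogenase activity, was used to sort out the brightest 10% of cells (ALDH high, 3 libraries) and the dimmest 10% (ALDH low, 3 libraries). The labels name no treatment and no engineered allele for either group. Sorted cells of both groups were cultured in the same serum-containing medium, and the length of that culture is not stated. Both come from a single cell line. Whether the 3 libraries of a group go back to independent sorts is not stated, and the p-values therefore measure no more than the spread among these samples.

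NRF2, encoded by NFE2L2, is a transcription factor that switches on genes for glutathione and thioredoxin chemistry, NADPH supply, quinone reduction and iron storage. Its partner KEAP1 binds it in the cytoplasm and hands it to a ubiquitin ligase, so that in unstressed cells most NRF2 protein is degraded. Oxidants and electrophiles modify cysteines of KEAP1, NRF2 builds up, pairs with a small MAF protein and binds the antioxidant response element. Because this control acts largely on the protein, the NFE2L2 transcript is a poor gauge of the pathway, and its target transcripts are read instead.

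The element itself can be shown for the members whose start sites carry it nearby. The core searched was TGACNNNGC, on both strands, in the 300 bases that run from 250 before to 50 after each start site in RefSeq (GRCh38.p14). RefSeq windows were matched by symbol for 23 of the 31 members, as 32 start sites. The core was found in 6 of these 32 windows (18.8%) and in 13.3% of all 35116 windows, so a match is common and is given as a description only. The 7 matches that lie wholly before a start site are printed on the strand that reads TGAC, with the core in capitals. Distances are counted from the core base farthest before the start site. On the opposite strand that is the last base printed in capitals.
GCLM, chr1:93909446-93909474, strand opposite to the gene, core beginning 34 bases before the start site: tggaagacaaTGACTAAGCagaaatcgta
KEAP1, chr19:10502784-10502812, opposite strand, core beginning 31 bases before the start site: caggtcaccaTGACTAAGCagagccgggc
KEAP1, chr19:10502807-10502835, gene strand, core beginning 54 bases before the start site: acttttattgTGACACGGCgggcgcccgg
ME1, chr6:83431170-83431198, gene strand, core beginning 137 bases before the start site: tctcctgccaTGACTCAGCgcttctcgca
TXNRD1, chr12:104215670-104215698, gene strand, core beginning 99 bases before the first start site: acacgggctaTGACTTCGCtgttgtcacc
TXNRD1, chr12:104286920-104286948, opposite strand, core beginning 102 bases before the second start site: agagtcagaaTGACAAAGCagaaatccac
PGD, chr1:10398853-10398881, opposite strand, core beginning 201 bases before the start site: agcacctagaTGACATTGCcccggcgagg
The ME1 match also contains TGACTCA, the AP-1 site, which overlaps the antioxidant response element by its letters. The 5 genes did not move together across libraries. Against the mean of the other 5 libraries, TXNRD1 and GCLM were lower in ALDH low 3, by a log2 deviation of −0.41 and −0.23, while ME1, KEAP1 and PGD were above it there, at 0.45, 0.34 and 0.20.

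ALDH high 2 stood apart from its group, and ALDH low 2 lay nearest to ALDH high 1 and 3. By mean chi-square per gene, ALDH high 2 was 50.7 and 51.9 from ALDH high 1 and 3, which were 5.24 apart. It was 41.3 from ALDH low 2, 63 from ALDH low 1 and 89.5 from ALDH low 3. ALDH low 2 was 5.24 and 9.86 from ALDH high 1 and 3. From ALDH low 1 and 3, themselves 82.3 apart, it was 82.1 and 73.8. Deviations from the group means sum to 0 within a group, so the correlations between groups cannot all be negative. Over the 11506 genes averaging 100 or more normalized reads, the deviations of ALDH high 2 correlated, among the ALDH low libraries, best with ALDH low 1 (0.559). Their correlation was −0.114 with ALDH low 3 and −0.434 with ALDH low 2. The deviations of ALDH low 2 correlated, among the ALDH high libraries, best with ALDH high 1 (0.392). The files do not settle whether these 2 samples carry the right labels, and every difference follows the labels as deposited. Leaving both out, limma called 0 of the 31 members and 0.669% of all genes.

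The comparison of ALDH high with ALDH low asks which transcripts differ between cells of high and low aldehyde dehydrogenase activity. No member passed an adjusted p of 0.05 with limma, where 0% of all 16000 genes did. The members' smallest adjusted p with limma was 0.984 and their smallest unadjusted p was 0.0502, in PRDX4. At an unadjusted p under 0.05 limma counted 0 of the 31 members (2.11% of all genes, 0.737% lower and 1.38% higher in ALDH high), limma-voom 0 (2.11%), edgeR 1, PRDX4 (2.23%), and DESeq2 2, PRDX4 and GPX1 (2.22%). Without ALDH low 2 limma counted 5, TXN2, PRDX3, PRDX4, PRDX5 and GPX1 (10.6% of all genes), and without both samples numbered 2 it counted 4, KEAP1, ME1, PRDX4 and GPX1 (15.3%). In RNA from sorted populations, fewer expressing cells and less RNA per cell cannot be told apart.

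The limma intervals bound how large an undetected difference could be only if the labels are right and the 6 libraries are independent. Neither is settled here. All 31 members had a 95% interval within a 2-fold change either way, as did 95.6% of the 10691 genes within the members' range of mean level. For 20 of the 31 the interval also lay within a 1.5-fold change, against 57.9% of those genes. Log2 differences, ALDH high minus ALDH low on log2(normalized reads + 1), ran from −0.40 in GPX1 to 0.10 in SRXN1. They lay below 0 in 25 members and above 0 in 6, with a median of −0.07, where 52.3% of all genes lay above 0 and the median of all genes was 0.02. Of the 10691 genes within the members' range of mean level, 49.5% lay above 0, with a median of −0.002. Under scaling to total counts 12 members lay above 0, and without ALDH low 3 it was 10. Without both samples numbered 2, 8 members lay above 0 and the members' median was −0.14.

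**Figure D1:**
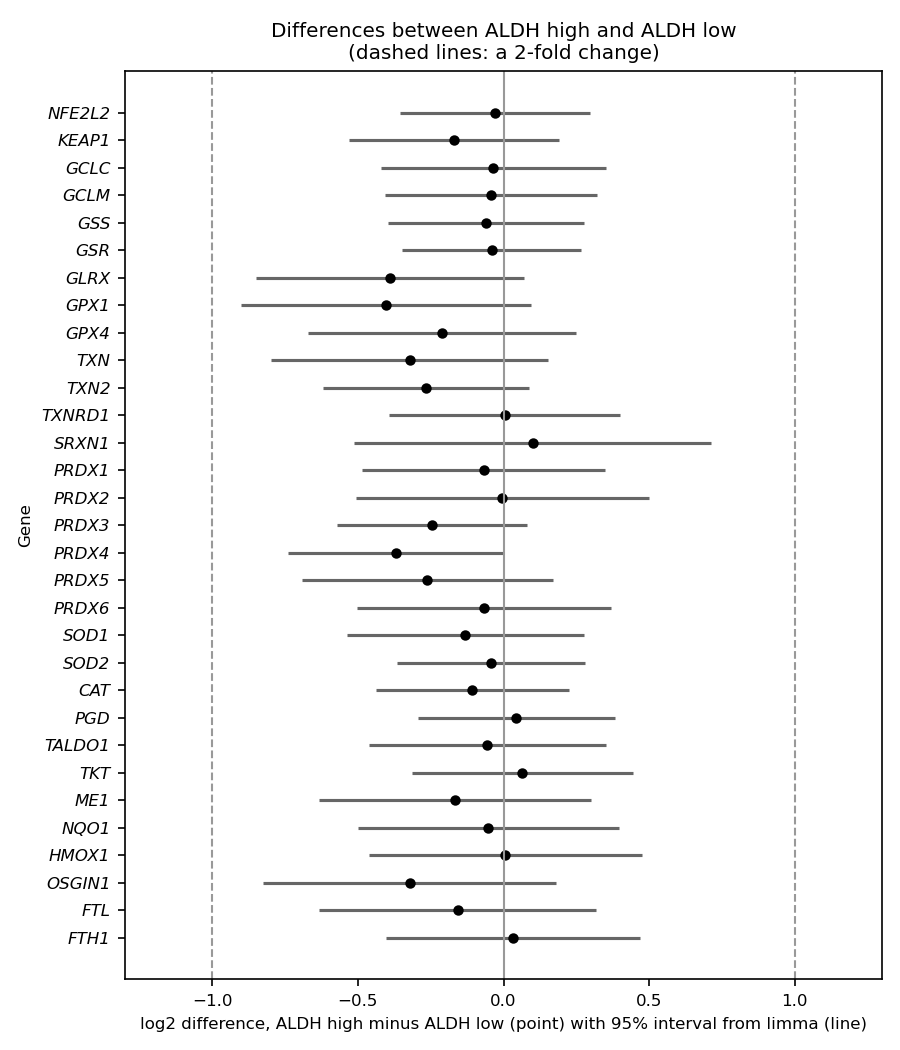
Log2 difference between ALDH high and ALDH low for each of the 31 genes (point) with its 95% limma interval (line), grouped by role from top to bottom. All 31 intervals lie between the dashed lines of a 2-fold change, and all 31 include 0; that of PRDX4 ends at 0.000336.

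The regulators stand first in the pathway, and neither passed the test. NFE2L2 (chromosome 2, 177227595 to 177392697, minus strand, GRCh38) had 1120, 1220 and 993 normalized reads in libraries ALDH high 1, 2 and 3, against 1095, 1154 and 1142 in libraries ALDH low 1, 2 and 3, the order used throughout. The ALDH low values lay inside the ALDH high range, and the log2 difference was −0.03 (95% interval −0.35 to 0.30). Its log2 SD over the 6 libraries was 0.10, the second smallest of the 31 members. KEAP1 (chromosome 19, 10486120 to 10503741) had 3434, 4246 and 3653 across the ALDH high libraries against 4400, 3564 and 4845 across the ALDH low ones. Its groups overlapped, with ALDH high 2 close to ALDH low 1 and ALDH low 2 close to ALDH high 3, and the log2 difference was −0.17 (−0.53 to 0.19). It was −0.07 without ALDH low 3, −0.295 without ALDH low 2 and −0.38 without both samples numbered 2. Per kilobase of principal transcript, NFE2L2 reads were 0.306 ± 0.029 times those of KEAP1 in ALDH high and 0.279 ± 0.049 times in ALDH low (SD, n = 3 each). Exons of other genes cover 20.9% of the annotated exon bases of NFE2L2, some on the opposite strand, so its level is uncertain.

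Glutathione is made by glutamate-cysteine ligase, with GCLC as its catalytic and GCLM as its modifier subunit, and then by glutathione synthetase, GSS. GCLC, a classic NRF2 target, averaged 563 ± 49.4 normalized reads across the ALDH high libraries against 579 ± 83.7 across the ALDH low ones (SD, n = 3 each). GCLM averaged 890.0 ± 89.6 and 919 ± 117. Both subunits were lowest in ALDH low 3, at 483 and 786. GSS averaged 4786 ± 50.6 and 5033 ± 788, and its spread in ALDH low came from ALDH low 3 at 5940, against 4651 and 4509. The log2 differences of GCLC, GCLM and GSS were −0.04, −0.04 and −0.06, and all 3 intervals lay within 1.5-fold.

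Oxidised glutathione is returned to its thiol form by GSR, glutathione reductase, which draws on NADPH. GSR had 9080, 8924 and 8495 normalized reads across the ALDH high libraries against 8625, 9341 and 9289 across the ALDH low ones, a log2 difference of −0.04 (−0.35 to 0.27). Its values stayed within 1.10-fold over all 6 libraries, the tightest of the 31 members, with a log2 SD of 0.06. GLRX, glutaredoxin, removes glutathione from protein cysteines. It had 424, 276 and 446 across the ALDH high libraries against 487, 493 and 491 across the ALDH low ones (chromosome 5, 95751319 to 95823005). Every ALDH high value was below every ALDH low value, and ALDH high 2 stood apart from the other 5 libraries. The log2 difference was −0.39 (−0.85 to 0.07, limma adjusted p = 0.984), and it was −0.17 without ALDH high 2.

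Groups did not overlap in 2 of the 31 members, GLRX and PRDX3, both with ALDH high below ALDH low. Of all genes 3.32% had that pattern. No member had the opposite one, which 3.67% of all genes had.

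Glutathione peroxidases spend glutathione to reduce peroxides, and both members are selenoproteins. GPX1, which acts on hydrogen peroxide in cytosol and mitochondria (chromosome 3, 49357171 to 49358600), had 9917, 10533 and 10221 normalized reads across the ALDH high libraries against 13958, 9489 and 18686 across the ALDH low ones. The ALDH high libraries sat close together, while ALDH low ran from the lowest to the highest value of all 6, the widest log2 spread of any member (SD 0.38). Its log2 difference was −0.40 (−0.90 to 0.09), and it was −0.17 without ALDH low 3 and −0.66 without ALDH low 2. In the authors' deposited table GPX1 has a p-value of 0.0456 and an adjusted one of 0.998. GPX4, which reduces lipid hydroperoxides in membranes and guards against ferroptosis, had 15264, 12860 and 15720 across the ALDH high libraries against 14111, 14778 and 23003 across the ALDH low ones. Only ALDH low 3 lay above the ALDH high range, and the log2 difference of −0.21 (−0.67 to 0.25) was 0.01 without it.

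Thioredoxin reduces disulfides in proteins and peroxiredoxins, and thioredoxin reductase recharges it with NADPH. TXN, the cytosolic thioredoxin (chromosome 9, 110243811 to 110256640), had 6444, 4096 and 6792 normalized reads across the ALDH high libraries against 8528, 6104 and 6742 across the ALDH low ones. ALDH high 2 was lowest and ALDH low 1 highest, 2.08-fold apart, and the other 4 libraries lay between 6104 and 6792. Its log2 difference was −0.32 (−0.80 to 0.15), and −0.09 without ALDH high 2. TXN has 7 annotated processed pseudogenes, whose near-identical sequence can take reads away from uniquely placed counts.

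TXN2, the mitochondrial thioredoxin, averaged 3956 ± 310 across the ALDH high libraries against 4790 ± 755 across the ALDH low ones, a log2 difference of −0.27 (−0.62 to 0.09). TXNRD1, the cytosolic reductase and an NRF2 target, had 10225, 11523 and 10617 across the ALDH high libraries against 12861, 11340 and 8517 across the ALDH low ones. ALDH low held both its highest and its lowest library, and the log2 difference was 0.003 (−0.39 to 0.40). SRXN1, sulfiredoxin, repairs overoxidised peroxiredoxins and is among the least abundant members. It had 216, 267 and 181 across the ALDH high libraries against 198, 292 and 146 across the ALDH low ones, so that both samples numbered 2 were highest. Its log2 difference, 0.10 (−0.51 to 0.71), carried the widest interval of the members, and it was −0.14 without ALDH low 3 and −0.04 without ALDH high 2. An overlapping gene on the same strand shares 85.0% of its exon bases.

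**Figure D2:**
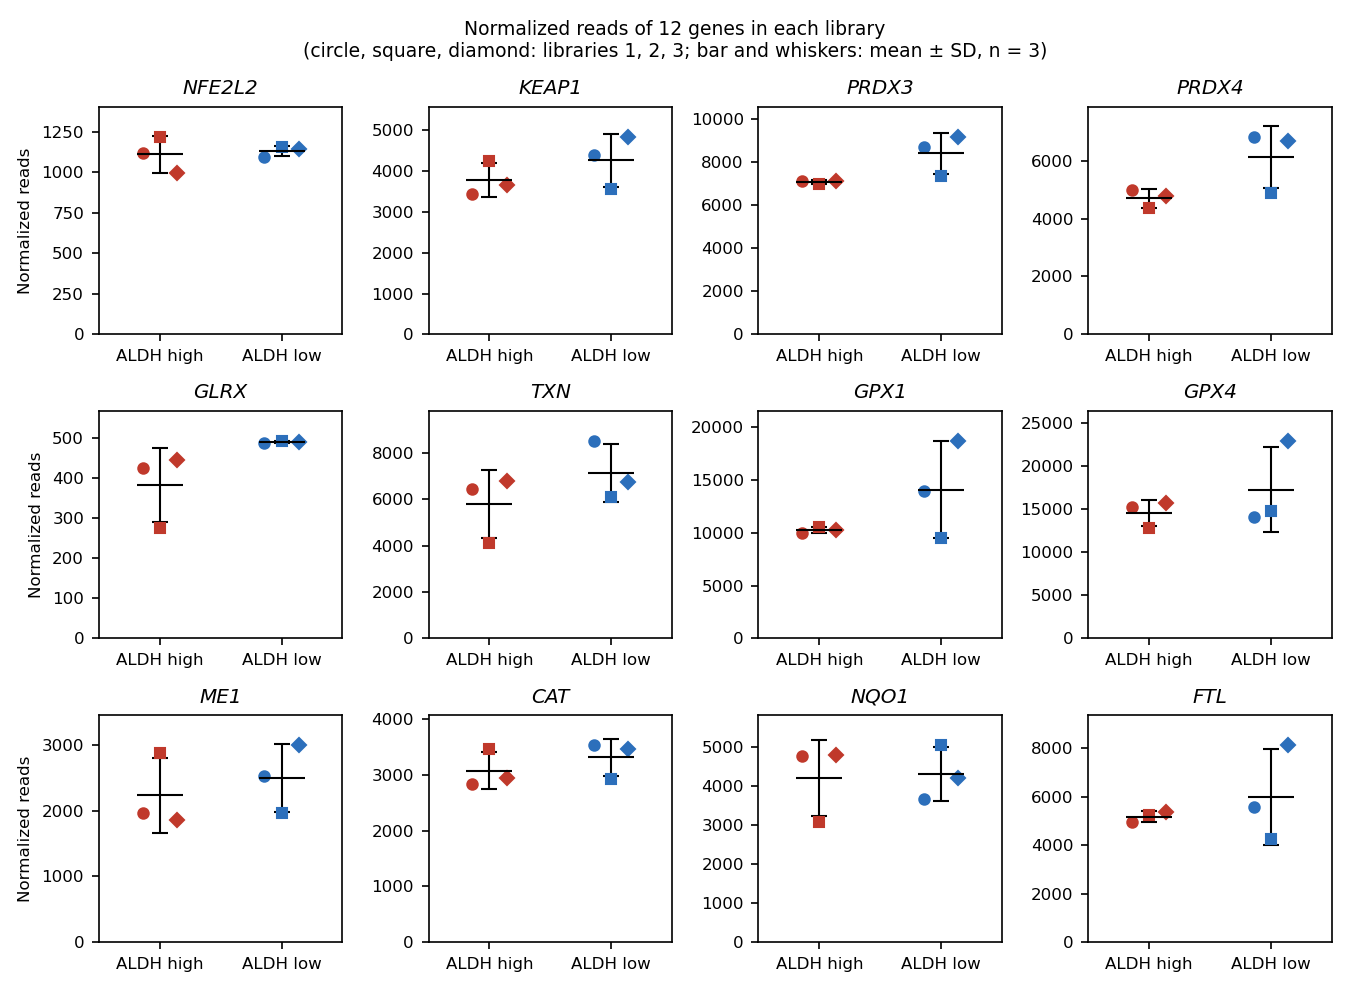
Normalized reads (vertical axes from 0) of 12 genes in the 3 ALDH high and 3 ALDH low libraries, with the mean and SD of each group (n = 3). Groups separate in PRDX3 and GLRX and overlap in the other 10; ALDH low 3 is the highest point of GPX1, GPX4 and FTL.

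Peroxiredoxins remove hydrogen peroxide through a reactive cysteine and are recharged mostly by thioredoxin. All 6 had log2 differences below 0, from −0.37 to −0.004, and none passed limma's threshold. The sign held under every alternative in PRDX3, PRDX4 and PRDX5, but not in PRDX1 (0.07 without ALDH high 2), PRDX6 (0.16 without ALDH low 3) or PRDX2 (0.22 without ALDH low 3 and 0.04 under total-count scaling). PRDX3, of the mitochondrial matrix (chromosome 10, 119167703 to 119178833), had 7098, 6949 and 7104 normalized reads across the ALDH high libraries against 8693, 7321 and 9164 across the ALDH low ones. The ALDH high libraries sat close together (7050.4 ± 87.5, SD, n = 3), and ALDH low 2 lay just above them. The log2 difference of PRDX3 was −0.24 (−0.57 to 0.08, limma adjusted p = 0.984).

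PRDX4, the peroxiredoxin of the endoplasmic reticulum (chromosome X, 23664262 to 23686399), had 4990, 4348 and 4763 across the ALDH high libraries against 6828, 4884 and 6681 across the ALDH low ones. ALDH low 1 and ALDH low 3 lay above all ALDH high libraries, and ALDH low 2 lay among them. Its log2 difference was −0.37 (−0.74 to 0.000336), and it ran from −0.53 without ALDH low 2 to −0.28 without ALDH low 1. In the authors' deposited table PRDX4 has a p-value of 0.0376 and an adjusted one of 0.998.

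PRDX5, which acts in mitochondria, peroxisomes and cytosol, had 12577, 11138 and 13791 across the ALDH high libraries against 14918, 11806 and 18910 across the ALDH low ones, a log2 difference of −0.26 (−0.69 to 0.17), which was −0.09 without ALDH low 3 and −0.43 without ALDH low 2. PRDX1, the main cytosolic form and an NRF2 target, had 23076, 16972 and 22450 across the ALDH high libraries against 18438, 23616 and 23267 across the ALDH low ones. Its low libraries were ALDH high 2 and ALDH low 1, 1 of each group, and its log2 difference was −0.07 (−0.48 to 0.35). PRDX2, another cytosolic form that is abundant in red blood cells, had 17578, 15204 and 18478 across the ALDH high libraries against 12306, 17266 and 23457 across the ALDH low ones. The ALDH high values lay inside the ALDH low range, and the log2 difference was −0.004 (−0.51 to 0.50). PRDX6, which also has phospholipase activity, averaged 5987 ± 241 and 6436 ± 1878, with ALDH low 3 at 8557 and ALDH low 1 at 4985. Opposite-strand genes share 24.9% of the exon bases of PRDX1 and 14.1% of those of PRDX2.

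Superoxide is converted to hydrogen peroxide by SOD1 in the cytosol and SOD2 in mitochondria, and catalase, CAT, splits hydrogen peroxide in peroxisomes. SOD1 averaged 6231 ± 1288 normalized reads across the ALDH high libraries against 6753 ± 816 across the ALDH low ones (SD, n = 3 each), with ALDH high 2 lowest at 4809. Its log2 difference of −0.13 was 0.04 without that library. SOD2 had 2198, 2424 and 2072 across the ALDH high libraries against 2576, 2196 and 2140 across the ALDH low ones, a log2 difference of −0.04 (−0.37 to 0.28) with overlapping groups. CAT had 2830, 3451 and 2935 across the ALDH high libraries against 3536, 2926 and 3461 across the ALDH low ones. ALDH high 2, ALDH low 1 and ALDH low 3 lay close together at the upper level and the other 3 at the lower one, so the levels crossed the labels. The log2 difference of CAT was −0.11 (−0.44 to 0.23).

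NADPH for both thiol systems comes in part from the pentose phosphate pathway and from malic enzyme. TKT, transketolase, had 27360, 24635 and 29095 normalized reads across the ALDH high libraries against 22663, 27344 and 27656 across the ALDH low ones, a log2 difference of 0.06 (−0.31 to 0.44). PGD, 6-phosphogluconate dehydrogenase, had 4802, 5703 and 5003 across the ALDH high libraries against 4467, 4912 and 5701 across the ALDH low ones, a log2 difference of 0.04 (−0.29 to 0.38). Neither varied by more than 1.28-fold between the lowest and highest over the 6 libraries. TALDO1, transaldolase, averaged 7903 ± 614 and 8336 ± 1871, from 6482 in ALDH low 1 to 10224 in ALDH low 3. ME1, cytosolic malic enzyme, had 1960, 2878 and 1852 across the ALDH high libraries against 2524, 1956 and 2998 across the ALDH low ones. As in CAT, ALDH high 2 sat with ALDH low 1 and ALDH low 3, and ALDH low 2 sat with ALDH high 1 and 3. The log2 difference of ME1 was −0.17 (−0.63 to 0.30), and it was −0.53 without both samples numbered 2, with a limma adjusted p of 0.216.

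NQO1, the quinone reductase often used as the lead readout of NRF2 (chromosome 16, 69706996 to 69726951), had 4752, 3073 and 4788 normalized reads across the ALDH high libraries against 3675, 5053 and 4197 across the ALDH low ones. Here the same 3 libraries, ALDH high 2, ALDH low 1 and ALDH low 3, were the low ones. The group means were 4204 ± 980.0 and 4308 ± 696 (SD, n = 3 each), a log2 difference of −0.05 (−0.50 to 0.40), which became 0.28 without both samples numbered 2. Mitochondrial transcripts took 2.01% to 2.996% of the gene reads in those 3 libraries and 4.55% to 4.90% in the other 3, and their part in the values of CAT, ME1 and NQO1 was not tested. A gene on the opposite strand shares 17.7% of the exon bases of NQO1. HMOX1, the inducible haem oxygenase, had 442, 457 and 518 across the ALDH high libraries against 439, 374 and 629 across the ALDH low ones, a log2 difference of 0.01 (−0.46 to 0.47). OSGIN1, an NRF2-induced growth inhibitor, was the least abundant member, with 120, 140 and 141 across the ALDH high libraries against 140, 165 and 200 across the ALDH low ones. ALDH high 2 and 3 and ALDH low 1 were level, and its log2 difference was −0.32 (−0.82 to 0.18).

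Ferritin stores iron in a shell of FTH1, which oxidises iron, and FTL, which helps lay down the mineral core. Both transcripts carry an iron responsive element in the 5′ untranslated region, a hairpin that iron regulatory proteins bind to hold back translation, so transcript levels do not show how much ferritin is made. The loop letters CAGTGN were found once in the 5′ untranslated region of each (GENCODE release 29, GRCh38), and the 30 bases around them are printed with the loop in capitals.
FTH1, chr11:61967573-61967602, minus strand: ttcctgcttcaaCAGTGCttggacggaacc
FTL, chr19:48965335-48965364, plus strand: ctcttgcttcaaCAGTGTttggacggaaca
FTH1 had 30901, 30329.5 and 25532 normalized reads across the ALDH high libraries against 23709, 26632 and 35354 across the ALDH low ones, a log2 difference of 0.03 (−0.40 to 0.47). Its ALDH high values lay inside the ALDH low range. FTL had 4946, 5251 and 5354 across the ALDH high libraries against 5574, 4255 and 8144 across the ALDH low ones, with ALDH low 3 far above the rest. Its log2 difference of −0.16 (−0.63 to 0.32) was 0.09 without ALDH low 3. The gene annotation lists 21 processed pseudogenes of FTH1 and 15 of FTL, and BEST1 on the opposite strand shares 62.4% of the exon bases of FTH1, so both levels are uncertain.

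Levels of different genes were compared per kilobase of the longest principal transcript in the annotation. FTH1 led with a mean of 23387 normalized reads per kilobase over the 6 libraries (range 19292 to 28766). It was followed by PRDX2 at 17610.3 (12468 to 23766), GPX4 at 17362 (13993 to 25031), PRDX1 at 17263 (13753 to 19137) and PRDX5 at 15517 (12473 to 21176). FTH1 was above the other 4 in each of the 6 libraries. The ranges of PRDX2, GPX4, PRDX1 and PRDX5 overlapped, so their order is not resolved beyond the spread between libraries. At the other end stood OSGIN1 at 67.7 (54.0 to 89.8), SRXN1 at 80.3 (54.0 to 108) and GCLC at 149.7 (127 to 167). The SRXN1 level is uncertain, because a gene on the same strand shares 85.0% of its exon bases. NFE2L2 stood at 393 (348 to 428), below KEAP1 at 1362 (1162 to 1640). The SOD2 value, 159, rests on a principal transcript of 14266 bases and would be higher with a shorter one. All 6 peroxiredoxins and both glutathione peroxidases stood above the enzymes of glutathione synthesis per kilobase: PRDX6, the lowest of the 8, was at 3547 (2847 to 4887), and GSS, the highest of those enzymes, at 1817 (1669 to 2198).

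**Figure D3:**
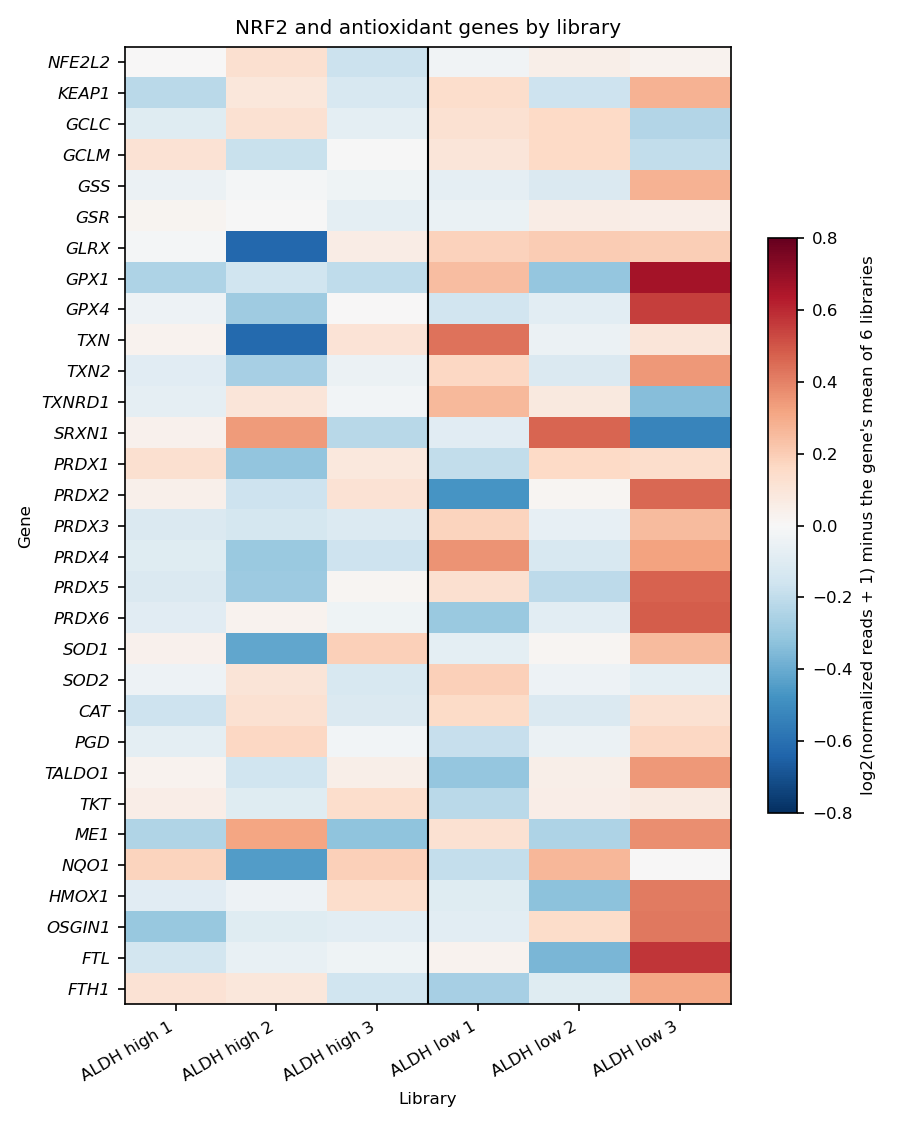
Log2(normalized reads + 1) of each of the 31 genes (rows, by role) in the 6 libraries (columns, ALDH high left of the line), minus the gene's mean over the 6 libraries. Red is above and blue below that mean; ALDH low 3 is red in most rows and ALDH high 2 is blue for TXN, GLRX, SOD1 and NQO1.

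The members' highest and lowest values were spread unevenly over the libraries. ALDH low 3 held the highest value of 16 of the 31 members (51.6%), while it was highest in 30.9% of the 11506 genes that averaged 100 or more normalized reads. Against the mean of the other 5 libraries, 26 of the 31 members lay above 0 there, with a median log2 deviation of 0.31, where those 11506 genes had a median of 0.01. GPX1 deviated by 0.80, FTL by 0.69, GPX4 by 0.66 and PRDX6 by 0.58. SRXN1, TXNRD1, GCLC, GCLM and SOD2 went the other way, at −0.64, −0.41, −0.28, −0.23 and −0.10. ALDH high 2 held the lowest value of 10 members (32.3%, against 18.6% of those genes), among them GLRX at −0.75, TXN at −0.75, NQO1 at −0.54 and SOD1 at −0.50. ALDH low 2 held the highest value of 7 members (22.6%, against 8.58% of those genes), and ALDH high 1 that of 0 members (against 8.13%). The 31 members together took 0.822% of the gene reads in ALDH high 2 (Wilson 95% interval 0.819 to 0.826) and 0.952% in ALDH low 3 (0.948 to 0.955), the lowest and highest shares, with the other 4 libraries between 0.846% and 0.875%. These intervals cover counting error only.

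The deviations of ALDH low 3 and ALDH high 2 moved with transcript length. Across the 31 members, the deviation of ALDH low 3 had a Spearman correlation of −0.64 with principal transcript length and 0.64 with GC content. Across 10703 genes these were −0.63 and 0.40. For ALDH high 2 the correlation with length was 0.58 across members and 0.60 across those genes. Across members it was 0.01 in ALDH high 1, −0.27 in ALDH high 3, 0.07 in ALDH low 1 and 0.37 in ALDH low 2. In ALDH low 1 the correlation with GC content was −0.33 across members and −0.51 across those genes. These are descriptions over genes that share the same libraries. Short transcripts such as FTL, PRDX5 and GPX4 stood high in ALDH low 3, and short TXN, SOD1 and PRDX4 stood low in ALDH high 2. The part of transcript length in the members' differences was not tested.

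**Figure D4:**
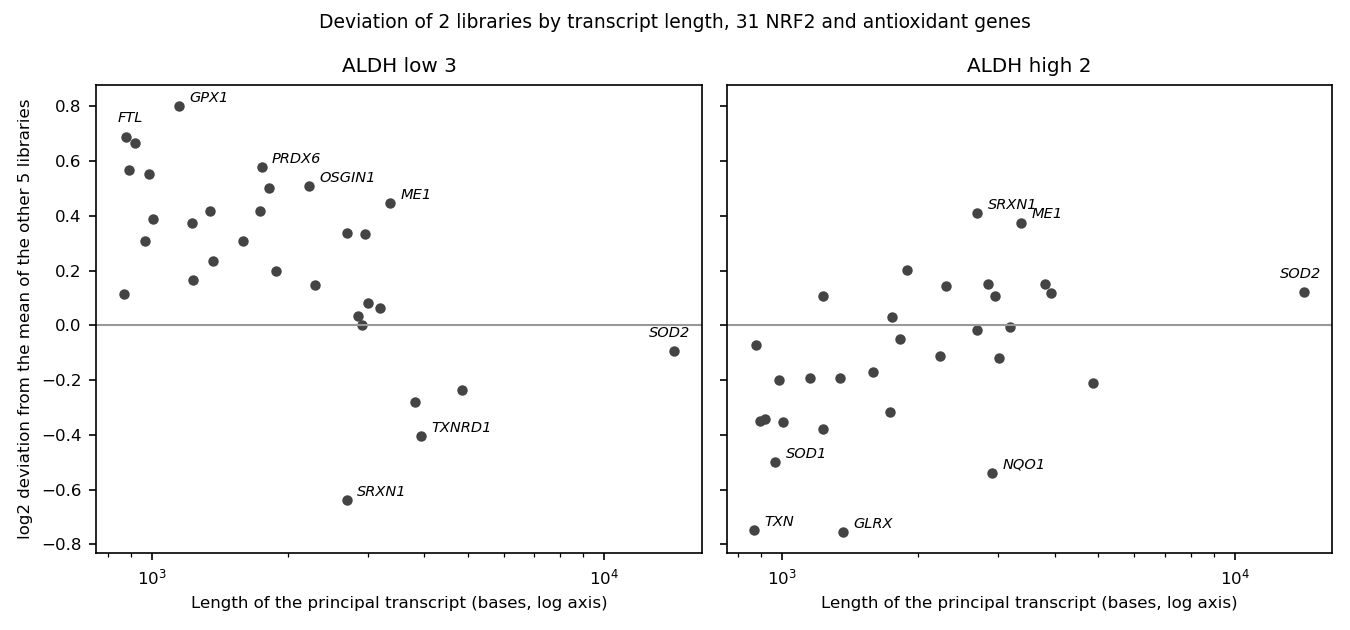
Log2 deviation of ALDH low 3 (left) and ALDH high 2 (right) from the mean of the other 5 libraries, against the length of the principal transcript in bases on a log axis, for the 31 genes. Deviations fall with length in ALDH low 3 (Spearman −0.64) and rise with it in ALDH high 2 (0.58).

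Other genes of the pathway, from lists chosen with earlier results of these data known, gave no call either. Limma called 0 members of each of these 7 lists, which held 10 to 23 genes each in the table. EdgeR and DESeq2 called 0 of all genes. At an unadjusted p under 0.05 limma counted 1 gene over the 7 lists, MSRB1, and 2.11% of all genes. Of 21 listed regulators and partners of NRF2, 20 were in the table, 13 with a log2 difference above 0 and 7 below, with a median of 0.03. RBX1, a subunit of the ligase that KEAP1 serves, had the lowest of those averaging 100 reads or more, −0.31 (−0.72 to 0.09), before SKP1 at −0.22. EP300 and CREBBP, acetyltransferase co-activators, had the highest at 0.46 (−0.14 to 1.06) and 0.30, and CREBBP was at −0.03 without ALDH high 2. Of 31 other NRF2 targets, 23 were in the table, 8 above 0 and 15 below, with a median of −0.07. IDH1, which makes NADPH, and PIR lay at −0.24 and −0.22, and the drug exporter ABCC1 and CYP4F11 at 0.19 and 0.23.

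Of 25 further thiol and peroxide enzymes, 22 were in the table, 6 above 0 and 16 below, with a median of −0.15. MSRB1, a selenoprotein that repairs oxidised methionine, averaged 1115 ± 41.9 and 1470.1 ± 283 (SD, n = 3 each), a log2 difference of −0.38 (−0.76 to −0.001, limma adjusted p = 0.984). SOD3 lay at −0.66 with an interval of −2.26 to 0.94, TXNIP, an inhibitor of thioredoxin, at 0.25, and SESN3, a sestrin, at 0.50. Of 20 further NADPH enzymes, 15 were in the table, 4 above 0 and 11 below, with a median of −0.06. TIGAR, which steers glucose towards the pentose phosphate pathway, lay at −0.34 (−0.74 to 0.07), and H6PD and MTHFD1 at 0.19 and 0.20. The groups did not overlap in TIGAR, with ALDH high below ALDH low, a pattern that 3.32% of all genes had. Other genes of these lists had it too, GGCT among them.

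Of 18 iron and haem genes, 13 were in the table, 5 above 0 and 8 below, with a median of −0.05. ACO1 and IREB2, which encode the iron regulatory proteins that bind the ferritin element printed above, lay at 0.31 (−0.08 to 0.70) and 0.16, and CYB561A3 and HMOX2 at −0.19 and −0.18. Of 19 genes of cysteine uptake, glutathione turnover and lipid peroxides, 18 were in the table, 5 above 0 and 13 below, with a median of −0.08. CHAC2 and GGCT, which both act in glutathione breakdown, lay at −0.44 (−0.91 to 0.04) and −0.34 (−0.69 to 0.02), and LPCAT3 and CBS at 0.31 and 0.18. Of 20 enzymes that make superoxide or hydrogen peroxide, 10 were in the table, 8 above 0 and 2 below, with a median of 0.12. ERO1A lay at −0.16, MAOA at 0.02, SMOX at 0.12 and ERO1B at 0.19. A few genes, IDH1 among them, stand on more than 1 of these lists.

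Recovered reads ran from 23817310 to 30617873 per library. The luminal prostate markers KLK3 and HOXB13 were abundant, at 84410 ± 3629 and 18162 ± 841 normalized reads across the ALDH high libraries against 87806 ± 12287 and 19966 ± 2605 across the ALDH low ones (SD, n = 3 each). The 12 luminal symbols listed stand for 11 genes, 1 of them under an old and a new symbol. All 11 were found, with SLC45A3 at a log2 difference of −0.14 and KLK2 at 0.14. Of other cell types, the table held 2 of 6 basal, 2 of 10 fibroblast, 3 of 9 endothelial, 1 of 10 leukocyte and 0 of 6 erythroid markers. The haemoglobin genes were thus not listed, in samples where PRDX2 was among the most abundant members. The fibroblast genes COL1A1 (1469 to 1776 reads in ALDH high and 821 to 1451 in ALDH low) and PDGFRB (70.2 to 84.6 and 59.8 to 68.3) did not overlap between groups. That pattern, ALDH high above ALDH low, was met in 3.67% of all genes and in 1 of the 11 luminal markers. COL1A2, COL3A1, DCN and LUM were not among the genes analysed. The part of COL1A1 and PDGFRB in the members' differences was not tested. KRT14, ITGA6 and VWF differed by −0.47, 0.10 and −0.21, and the leukocyte marker CD68 averaged 23.5 ± 7.90 and 23.7 ± 3.97.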

How the data were processed

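Per the submitters' processing notes, Trimmomatic 0.36, STAR 2.5.2b, featureCounts of Subread 1.5.2 and DESeq2 were used with GRCh38. Per the labels' protocols, uniquely placed reads in exons were counted, and strand use is not settled by them. The authors deposited a signal per gene and library, the read count divided by 1 size factor, for 16000 genes and 46 ERCC spike-in sequences. Beside these, the authors deposited a log2 fold change (positive where ALDH low is higher), a p-value and an adjusted p-value per gene. The lowest mean of a gene or spike-in was 9.65, and no lower one is listed, while all 31 members were above it.

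The values were whole multiples of 1 step per library, and at least 99.99% came out as whole reads within 0.02 of a read. The main test was limma 3.58.1 (R 4.3.3) on log2(normalized reads + 1) over all 16000 genes, moderated along a mean-variance trend, with Benjamini-Hochberg adjustment and a threshold of 0.05; a fold change on this scale understates that of low genes. The fits were tested on simulated data. Alternatives were edgeR 4.0.16, DESeq2 1.42.0 and limma-voom on the recovered reads, other scalings, pseudocounts, a filter on low means, and left-out libraries. Libraries differed by a mean chi-square per gene of at least 5.24, so none was a duplicate. Coordinates, exon overlaps, transcript lengths and GC content come from GENCODE release 29, and start-site sequences from RefSeq.

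The members and lists were chosen with earlier results of these data known. Every member is named. Values in all 6 libraries were due for NFE2L2, KEAP1, members without overlap, the 5 highest per kilobase, and the 5 with the largest and the 5 with the smallest spread. They are also given for others, chosen after their values were seen. From each other list the 2 highest and 2 lowest differences are named, taken from genes averaging 100 reads or more, and KLK3 and HOXB13; CD68, PDGFRB and genes named as not found fall outside that rule, and 1 gene that it names is not reported here.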

Additional observations from a re-analysis of the deposited data

Results flagged for a closer look

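ERCC spike-ins, synthetic control RNAs that no comparison here uses, took 0.487% of all reads when the 6 libraries are summed, which is more than a count of 0 would allow. The share ran from 0.399% in ALDH high 2 to 0.630% in ALDH high 1. With 3 libraries a group, no search for single outlying samples was made.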

How the results depend on the processing

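No alternative called any of the 31 members, and all genes gave 0 calls under every alternative except without both samples numbered 2, which called 107. There the members' smallest limma adjusted p was 0.184 (GPX1, −0.68). It turned the sign of NQO1 (0.28), GCLM (0.104), TXNRD1 (−0.0065), HMOX1 (−0.135), PGD (−0.042), TALDO1 (0.0202), PRDX1 (0.136), PRDX2 (0.0851), SOD1 (0.0199), FTH1 (−0.0437), CREBBP (−0.0128), MAOA (−0.152), SMOX (−0.0991) and ITGA6 (−0.0477). Total-count scaling, which moved the median of all genes from 0.02 to 0.06, put 12 members above 0 and turned GCLC (0.00939), GCLM (0.00126), GSR (0.00448), PRDX2 (0.0402), SOD2 (0.000485) and NFE2L2 (0.0151). TXNRD1 and HMOX1 were at −0.0176 and −0.0266 with edgeR and at −0.0163 and −0.0252 with DESeq2. The cause of these turns was not tested.

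With each library left out in turn, the number of members above 0 ran from 4 to 10 (10 without ALDH low 3). The members' differences that changed sign ran as follows: NQO1 −0.161 to 0.159, GCLC −0.161 to 0.0368, GCLM −0.152 to 0.0342, TXNRD1 −0.165 to 0.133, SRXN1 −0.139 to 0.359, HMOX1 −0.157 to 0.217, PGD −0.0376 to 0.138, TALDO1 −0.224 to 0.104, TKT −0.0282 to 0.13, GSS −0.135 to 0.0635, GPX4 −0.341 to 0.0118, PRDX1 −0.184 to 0.073, PRDX2 −0.241 to 0.224, PRDX6 −0.231 to 0.158, SOD1 −0.258 to 0.0445, SOD2 −0.105 to 0.0386, NFE2L2 −0.0995 to 0.0485, FTL −0.379 to 0.0892 and FTH1 −0.0906 to 0.198. The 12 members that kept their sign ran as CAT −0.194 to −0.0505, GLRX −0.516 to −0.172, GPX1 −0.66 to −0.171, GSR −0.0772 to −0.0123, KEAP1 −0.295 to −0.0737, ME1 −0.366 to −0.0238, OSGIN1 −0.446 to −0.191, PRDX3 −0.34 to −0.178, PRDX4 −0.525 to −0.283, PRDX5 −0.431 to −0.0916, TXN −0.457 to −0.0924 and TXN2 −0.39 to −0.16. Among other genes, sign changes came in CREBBP −0.0323 to 0.507, ABCC1 −0.00532 to 0.301, CYP4F11 −0.0191 to 0.524, IREB2 −0.00473 to 0.254, ERO1A −0.336 to 0.0849, MAOA −0.109 to 0.0983, ERO1B −0.0655 to 0.42, ITGA6 −0.0917 to 0.204, VWF −0.537 to 0.0329 and KLK3 −0.127 to 0.0617. Over all alternatives, 55 of 527 member values turned sign, in 20 members, and 11 members never did.

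Same-numbered libraries did not deviate together (correlations −0.46, −0.43 and 0.14), so the numbers are not taken as pairs. With the number as a replicate block, 0 genes were called, 226 had an unadjusted p under 0.05, and PRDX4 had an unadjusted p of 0.0425 with limma. Counting error weighs most on the least abundant members, OSGIN1 and SRXN1, which averaged 151 and 217 normalized reads.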
